A study of Mus musculus with 8 samples.

Results

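Cells of the mouse line SN4741 that carried a transcript of Nr4a2 were described against the other cells of the same libraries. Nr4a2-positive cells were those with 1 or more unique molecular identifiers (UMIs, each standing for 1 captured RNA molecule) of Nr4a2, among cells with at most 15% of UMIs from the mitochondrial genome, 200 to 6000 detected genes and at least 5000 UMIs. There were 692 Nr4a2-positive cells among 16015 cells that met these limits, 363 of 7882 at 37 °C and 329 of 8133 at 39 °C. The other 15323 cells held 0 Nr4a2 UMIs and are called zero cells. The cells were thus chosen by their Nr4a2 UMIs, so that its level is given as a description and it was left out of every test.

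SN4741 is described as a clonal line of neural precursor cells, made from the substantia nigra of mouse embryos and immortalised with a temperature-sensitive SV40 large T antigen under the control of the tyrosine hydroxylase promoter. The study profiled 4 libraries of cells kept undifferentiated at 37 °C in medium with 10% fetal bovine serum (FBS), and 4 libraries of cells moved to 39 °C for 48 hours in medium with 0.5% FBS to be differentiated. The temperature shift, the loss of T antigen activity that it brings and the lowered serum came together, so their effects cannot be told apart. Nothing in the labels ties the 4 libraries of a temperature to separate cultures, so the p-values below measure the spread between libraries, which may be technical.

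Nr4a2, also named Nurr1, is an orphan nuclear receptor that midbrain dopaminergic neurons need to form and to survive, and it acts on the genes for tyrosine hydroxylase (Th), the dopamine transporter (Slc6a3) and the vesicular monoamine transporter (Slc18a2). With its relatives Nr4a1 (Nur77) and Nr4a3 (Nor1) it makes up the NR4A family, whose members bind the same response element as monomers and, for Nr4a1 and Nr4a2, can also pair with retinoid X receptors. The NR4A genes are immediate-early genes, switched on within minutes by cyclic AMP through the factor CREB and by serum and growth factors, in many cell types outside the brain as well.

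Nr4a2 (ENSMUSG00000026826) lies on the minus strand of chromosome 2 at 57106830 to 57124003 in GRCm38. The promoters of Nr4a2, of Nr4a1 and of Areg are shown because Nr4a1 and Areg were higher in Nr4a2-positive cells at both temperatures (below) and because their windows, like that of Nr4a2, held the short core of the cyclic AMP response element. They were picked for that match: of the 10 genes called everywhere (below) that had a window, only Nr4a1 and Areg held the core, 2 of 6 higher and 0 of 4 lower genes. Each sequence is the GRCm38.p6 strand of the gene, 5′ to 3′, covering the 250 bases before the annotated start in RefSeq. Capitals mark every match, on either strand, to TGACG (the core, read CGTCA on the other strand) and to the full element TGACGTCA.
Nr4a2, chr2:57124004-57124253, minus strand: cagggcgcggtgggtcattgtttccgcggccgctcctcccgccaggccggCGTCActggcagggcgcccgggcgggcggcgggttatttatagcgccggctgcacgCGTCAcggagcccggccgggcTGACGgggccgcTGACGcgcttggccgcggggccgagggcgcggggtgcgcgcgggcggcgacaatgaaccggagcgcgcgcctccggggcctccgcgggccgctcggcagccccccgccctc
Nr4a1, chr15:101266596-101266845, plus strand: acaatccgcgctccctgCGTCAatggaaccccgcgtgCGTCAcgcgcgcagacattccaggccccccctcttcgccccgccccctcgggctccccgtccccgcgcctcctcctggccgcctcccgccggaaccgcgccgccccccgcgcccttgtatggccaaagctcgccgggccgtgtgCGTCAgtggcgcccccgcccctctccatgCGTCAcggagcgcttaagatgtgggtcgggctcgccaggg
Areg, chr5:91139349-91139598, plus strand: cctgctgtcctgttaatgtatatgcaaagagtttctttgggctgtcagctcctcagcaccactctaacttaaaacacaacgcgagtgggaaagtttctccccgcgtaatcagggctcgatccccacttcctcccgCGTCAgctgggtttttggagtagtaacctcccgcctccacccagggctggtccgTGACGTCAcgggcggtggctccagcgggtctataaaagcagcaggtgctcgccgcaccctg
The Nr4a2 window held 4 core matches, at -200, -144, -123 and -111 from the start, and the Nr4a1 window held 4, at -233, -213, -69 and -40. The Areg window held the full element at -61, which contains 2 of its 3 core matches. Among all 32851 windows of this length, 17.8% held the core and 1.55% the full element, every window with the full element being counted under the core too. A match is a string of letters and not a site shown to be bound.

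The deposited tables held 19125 cells and 228647754 UMIs. The limits kept between 949 and 2485 cells a library, with 8106 to 16983 UMIs in the median zero cell. Pairs of libraries shared 0 to 5 cell barcodes, over 28 pairs. Some markers of dopaminergic neurons, Th and Slc6a3 among them, were not detected in the positive cells, and other listed markers were. Of 21 dopaminergic genes listed, 11 (Th, Slc6a3, Lmx1a, Pitx3, Foxa1, Otx2, Drd2, Kcnj6, Calb1, Corin and En2) had 0 UMIs in all 692 of them, a count that allows up to 0.532 CPM, UMIs of a gene per 1000000 UMIs, at 37 °C and up to 0.752 CPM at 39 °C. Intervals and limits of this kind cover counting error only. The other listed genes had UMIs in positive cells at 37 °C, at 39 °C or at both. They were Slc18a2, Ddc, Lmx1b, Foxa2, En1, Aldh1a1, Ret, Gch1, Msx1 and Sox6. Counted by temperature, 12 of the 21 had 0 UMIs in positive cells at 37 °C and 13 at 39 °C. The absence of the 11 was not compared with zero cells.

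The transcript that chose the cells was rare. In all, 801 Nr4a2 UMIs were counted, and 608 of the 692 positive cells, or 87.9%, held a single one. A further 65 cells held 2 and 19 held 3 or more, the most being 7 in a cell of 39 °C replicate 2. Positive cells with 1 UMI are therefore the members just inside the threshold and the zero cells lie just outside it. A cell with 0 UMIs was not shown to lack the transcript, and a single UMI can also come from free RNA in a droplet. No cell type in these cultures is known to lack Nr4a2 and could give the background share.

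At 37 °C the positive cells were 88 of 2183, 93 of 1599, 90 of 1702 and 92 of 2398 cells in replicates 1 to 4. These are shares of 4.03, 5.82, 5.29 and 3.84%. At 39 °C they were 63 of 949, 84 of 2384, 88 of 2315 and 94 of 2485 cells, or 6.64, 3.52, 3.80 and 3.78%. Replicate 1 at 39 °C stood above the other libraries of its temperature and was also the deepest of them, with a median of 16983 UMIs in zero cells against 8106 to 10607 in the others. As a level over all kept cells, Nr4a2 was at 3.31, 3.91, 3.72 and 3.80 CPM at 37 °C and at 4.51, 4.23, 3.49 and 5.15 CPM at 39 °C, ranges that overlap.

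**Figure D1:**
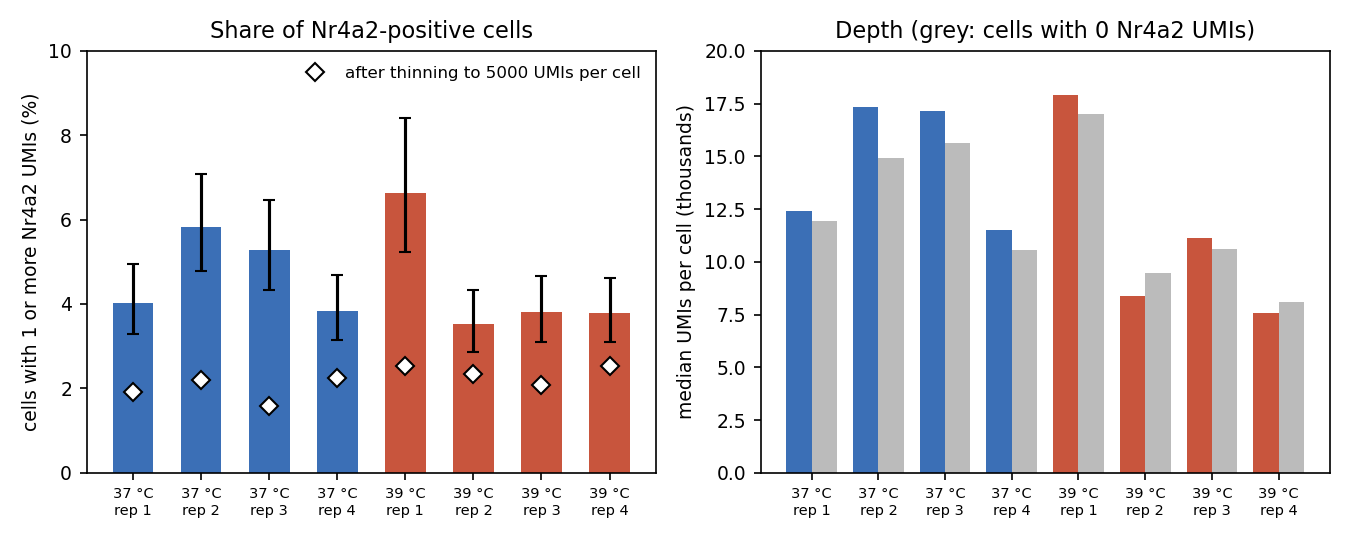
Share of Nr4a2-positive cells in each library (left, % of kept cells; bars with 95% Wilson intervals for counting error, diamonds after thinning each cell to 5000 UMIs) and median UMIs per cell (right, in units of 1000 UMIs; coloured bars are positive cells, grey bars zero cells). Replicate 1 at 39 °C has the highest bar at 6.64%, while its diamond, at 2.53%, lies among the other 39 °C libraries.

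A share of cells with a UMI depends on depth, so every cell was thinned to 5000 UMIs before the temperatures were compared. The shares became 1.92, 2.19, 1.59 and 2.25% at 37 °C and 2.53, 2.35, 2.07 and 2.54% at 39 °C. Their means were 1.99 ± 0.303% and 2.37 ± 0.217% (SD, n = 4 each), and the groups overlapped. The difference of 0.384 percentage points did not pass a two-sided exact permutation test over the 70 assignments of the libraries (p = 0.114, the smallest possible being 0.0286). Without thinning, the shares gave a difference of -0.306 percentage points (p = 0.743, exact permutation test), the opposite direction.

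Positive cells were somewhat deeper than zero cells at 37 °C. With cells sorted by depth into 5 equal classes, from the shallowest to the deepest, the positive share at that temperature ran 3.30, 4.18, 4.88, 5.14 and 5.53%. At 39 °C it ran 4.49, 4.12, 4.18, 3.13 and 4.31%, with no order by depth. The median positive cell at 37 °C held 14213 UMIs against 12715 in zero cells, and was deeper in 4 of 4 libraries. At 39 °C the medians were 9903 and 9799 UMIs, and positive cells were the shallower ones in replicates 2 and 4. For this reason each comparison below was made both with all zero cells of a library and with zero cells drawn to match the positive cells 1 to 1 in total UMIs.

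Positive cells were spread through the population. Among the 30 nearest cells of the same library in expression space, computed without Nr4a2, positive cells had 4.28, 9.89, 6.96 and 5.98% positive neighbours at 37 °C, and matched zero cells had 3.14, 7.28, 6 and 3.26%. At 39 °C the shares were 8.78, 3.45, 6.36 and 6.49% and 6.88, 3.49, 4.17 and 3.69%. The neighbourhoods of positive cells were the richer ones in 7 of 8 libraries, all but 39 °C replicate 2, and in none did positive cells make up a large part of their own neighbourhood. The variance of Nr4a2 UMIs over their mean, after thinning, was 1.12 ± 0.0123 at 37 °C and 1.19 ± 0.209 at 39 °C (SD, n = 4), a value of 1 being that of random counts. The highest, 1.48, was that of 39 °C replicate 2, which holds the cell with 7 UMIs.

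The first question was which genes were expressed at another level in Nr4a2-positive cells within a library. Positive cells expressed more of the related receptor Nr4a1, of the membrane protein Tm4sf1 and of the growth factors Fgf7, Areg and Inhba at both temperatures. They expressed less of the neuronal microtubule regulator Stmn2 and of 5 further genes, among them the tetraspanin Tspan8 and the collagen Col18a1. UMIs were summed per library over positive and over zero cells, and the sums were tested with edgeR's quasi-likelihood test with the library as a block and Benjamini-Hochberg adjustment over all genes tested. A gene is called changed where the adjusted p was under 0.05. With depth-matched zero cells, 44 genes were higher and 51 lower at 37 °C, which is 0.442% and 0.512% of 9962 genes tested, and 30 were higher and 29 lower at 39 °C, 0.301% and 0.291%. With all zero cells, 216 genes were higher and 207 lower at 37 °C (1.71% and 1.64% of 12629), and 106 were higher and 256 lower at 39 °C (0.839% and 2.03%). The last split depended on the scaling: with RLE size factors in place of TMM it was 160 higher and 128 lower. The split at 37 °C moved too, to 235 higher and 179 lower with RLE size factors. It was 56 and 235 without 37 °C replicate 3, and 89 and 608 with no filter on low counts. Of the depth-matched calls, 88 of 95 at 37 °C and 55 of 59 at 39 °C were also called, in the same direction, against all zero cells. Both comparisons use the same positive cells, and the matched zero cells are part of all zero cells. Their overlap is therefore not separate support.

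The depth-matched counts rest on 1 random draw of zero cells. Another draw called 167 genes at 37 °C and 51 at 39 °C. Leaving out 37 °C replicate 3 lowered the count at 37 °C to 19. For this reason the description below leads with the 13 genes called in the same direction at both temperatures and in both comparisons. These are named as called everywhere. Their calls moved too, depth-matched, at 37 °C and 39 °C. DESeq2, which gave many genes no adjusted p, called 1 and 2 of the 13. Before adjustment too it had fewer genes at p under 0.05, 246 and 238 of 9962 against 1070 and 923 by edgeR. No library block left 4 and 9, thinned cells 6 and 10, at most 10% mitochondrial UMIs 8 and 9, and another draw 12 and 9. Without 37 °C replicate 3, 5 were called at 37 °C. All 13 kept their direction in each of these settings. The temperatures shared 14 depth-matched calls, which is 14.7% of those at 37 °C and 23.7% of those at 39 °C, and 13 of them had the same direction. Their number is a count over genes and was not tested as an overlap.

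Nr4a1 (ENSMUSG00000023034, plus strand of chromosome 15, 101254269 to 101274795), the relative of Nr4a2 that binds the same response element, had the smallest adjusted p among the genes that were higher in positive cells at either temperature. At 37 °C its levels in positive cells were 30.5, 38.5, 40.97 and 27.3 CPM in replicates 1 to 4, against 17.8, 6.68, 11.4 and 8.35 CPM in matched zero cells. At 39 °C they were 62.9, 66.4, 79.2 and 139.7 CPM against 18.6, 26.3, 17.97 and 34.95 CPM. Every positive-cell value lay above every zero-cell value of its temperature. The log2 fold changes were 1.70 ± 0.21 (SE) at 37 °C and 1.84 ± 0.18 (SE) at 39 °C, with adjusted p = 7.55e-07 and 3.13e-10 (edgeR quasi-likelihood, Benjamini-Hochberg). It was called in 20 of 20 alternative analyses at each temperature that gave it an adjusted p. DESeq2 gave it none in the depth-matched comparison, and against all zero cells DESeq2 called it at both temperatures (adjusted p = 4.77e-14 and 4.06e-20). Counted by cells, 25.9% of positive and 11.6% of matched zero cells had an Nr4a1 UMI at 37 °C, and 37.4% and 19.5% at 39 °C. Most positive cells thus showed no Nr4a1 UMI at this depth.

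Tm4sf1, a surface protein of the tetraspanin superfamily, followed at 37 °C with levels of 55.1, 30.6, 56.9 and 59.96 CPM in positive cells and 11.02, 20.04, 28.9 and 11.1 CPM in matched zero cells. At 39 °C they were 27.7, 42.7, 53.7 and 98.5 and 22.8, 14.3, 15.4 and 22.5 CPM. The groups did not overlap at either temperature, although replicate 1 at 39 °C showed the smallest gap. The log2 fold changes were 1.39 ± 0.21 (SE) and 1.47 ± 0.23 (SE) (adjusted p = 3.77e-05 and 1.02e-04). Fgf7, a secreted growth factor that stimulates epithelial cells, was at 19.5, 25.2, 26.9 and 28.2 CPM against 14.4, 18.2, 12.6 and 10.2 CPM at 37 °C. At 39 °C it was at 20.1, 18.98, 9.37 and 38.7 CPM against 3.38, 7.17, 3.42 and 3.75 CPM, and again the groups did not overlap. Its log2 fold change was 0.82 ± 0.22 (SE) at 37 °C and 2.23 ± 0.34 (SE) at 39 °C (adjusted p = 0.0441 and 5.54e-05), and the difference between the temperatures, 1.41, did not pass the test (adjusted p = 0.412).

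The other 4 genes that were higher everywhere rose by less. Areg, a ligand of the epidermal growth factor receptor, was at 134, 140.0, 158 and 116 CPM in positive cells and 108, 87.4, 115 and 95.6 CPM in matched zero cells at 37 °C, and at 211, 232, 232 and 267 and 162, 146, 127 and 164 CPM at 39 °C (log2 0.45 and 0.65). The groups were separate at both temperatures. The remaining 3 were Anxa5, a calcium-dependent phospholipid-binding protein (0.45 and 0.59), Thbs1, which encodes the matrix glycoprotein thrombospondin 1 (0.43 and 0.59), and Inhba, the activin A subunit (0.40 and 0.46). At 39 °C the Thbs1 and Inhba groups overlapped, with positive cells higher in 3 of 4 libraries for each.

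Stmn2, which encodes the neuronal growth-associated protein stathmin-2, was the gene with the largest fall among the 13. At 37 °C it was at 62.7, 80.5, 71.5 and 68.1 CPM in positive cells and 132, 111, 156 and 183 CPM in matched zero cells, and at 39 °C at 25.2, 23.7, 27.3 and 13.7 and 32.1, 100.4, 55.6 and 48.7 CPM. All positive-cell values lay below all zero-cell values of the same temperature. The log2 fold changes were -0.997 ± 0.12 (SE) and -1.28 ± 0.21 (SE) (adjusted p = 2.86e-07 and 1.21e-04). The other genes that were lower at both temperatures were Tspan8, a tetraspanin (-0.68 and -0.51), Glipr2 (-0.55 and -0.53), Col18a1, a basement membrane collagen (-0.49 and -0.47), Serpinb1a, an inhibitor of neutrophil proteases (-0.41 and -0.79), and Baiap2, an organiser of actin at membrane protrusions (-0.33 and -0.33). Of these only Serpinb1a at 37 °C had overlapping groups. In the depth-matched comparison none of the 13 genes differed between the temperatures in the size of its change, and against all zero cells Anxa5 did (0.30, 39 °C minus 37 °C, adjusted p = 0.0299).

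**Figure D2:**
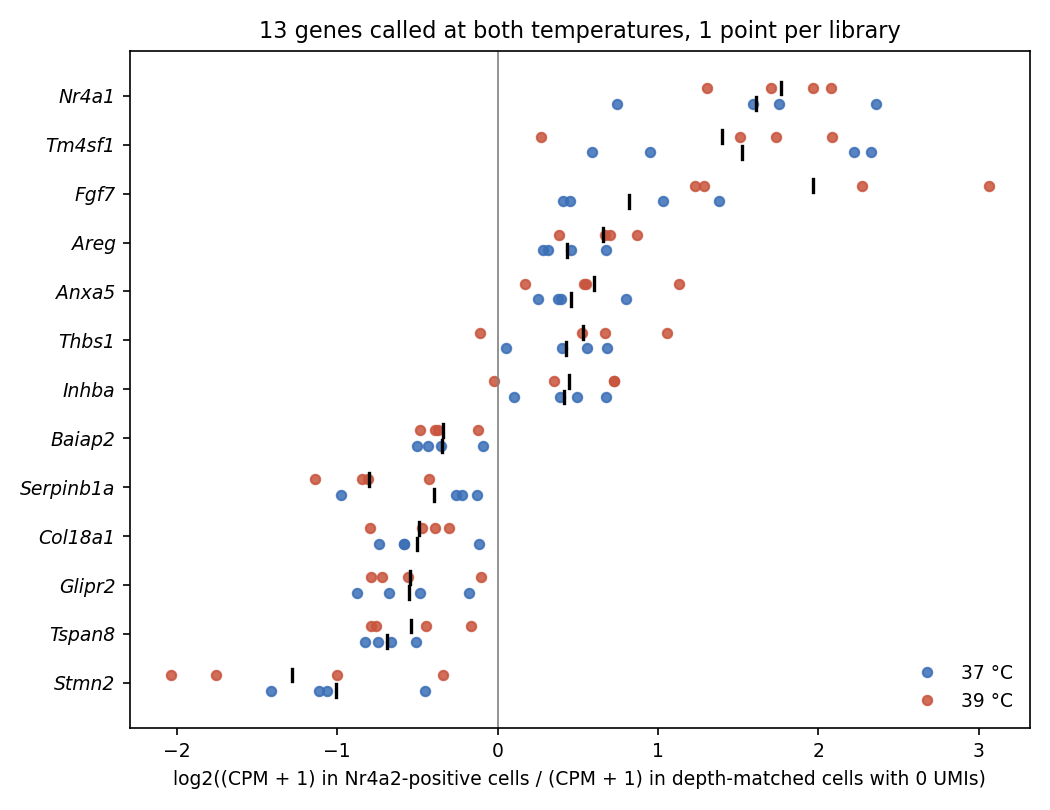
Log2 ratio of CPM + 1 in Nr4a2-positive cells over CPM + 1 in depth-matched zero cells for the 13 genes called at both temperatures, 1 point per library (blue 37 °C, red 39 °C) with the mean as a black bar. Every point of Nr4a1, Tm4sf1 and Fgf7 lies above 0 and every point of Stmn2 lies below it, and the points of 1 temperature differ from each other by more than 1 log2 unit for several genes.

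The same genes were then read by the number of Nr4a2 UMIs, as a description over pooled cells with 0, 1 and 2 or more. The class with 0 held all zero cells, not matched in depth. The genes had been picked for differing between zero and positive cells, so the step up from 0 is not separate support. Nr4a1 stood at 12.7, 26.4 and 109 CPM in these classes at 37 °C and at 28.98, 70.8 and 159.7 CPM at 39 °C. The class with 2 or more held only 37 and 47 cells, and the intervals given in the plot by Nr4a2 UMIs cover counting error alone. Areg stood at 104, 132 and 193 CPM and at 145, 212 and 361 CPM. Stmn2 stood at 115, 76.7 and 19.1 CPM and at 58.00, 24.2 and 18.3 CPM. In these pooled values Nr4a1 and Areg ran upward and Stmn2 downward over the 3 classes at both temperatures. Pooling weights libraries unequally, since 1 library gave up to 40.5% of the UMIs of the class with 2 or more at 37 °C and 41.6% at 39 °C, and a library held only 6 to 15 such cells. Within libraries, Nr4a1 was higher at each step in 4 of 4 at both temperatures. Areg was so in 3 of 4 at each temperature, and in 39 °C replicate 1 it stood at 148, 236 and 128 CPM. Stmn2 was lower at each step in 4 of 4 libraries at 37 °C and 3 of 4 at 39 °C. Pooled, Tm4sf1 ran upward at 39 °C (17.6, 47.8 and 81.5 CPM) but at 37 °C its level was highest with 1 UMI (22.7, 51.1 and 27.8 CPM). With members redefined as cells with 2 or more UMIs, the depth-matched comparison called 2 of the 12 genes still tested at 37 °C (Anxa5 and Nr4a1) and 3 at 39 °C (Areg, Nr4a1 and Tm4sf1), and all 12 had the same direction as before. These members are part of the positive cells above, so the shared direction is not separate support.

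**Figure D3:**
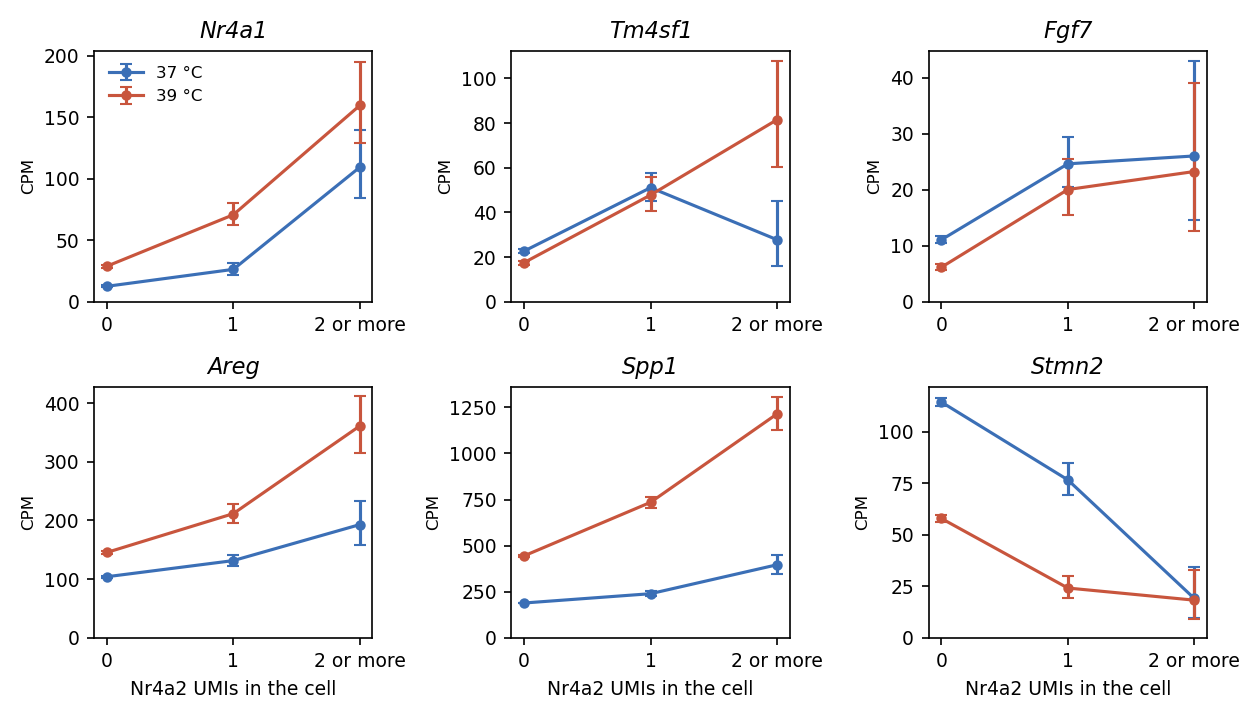
CPM of 6 genes in cells pooled by their number of Nr4a2 UMIs (0, 1, and 2 or more), with exact 95% Poisson intervals for counting error (blue 37 °C, red 39 °C). Nr4a1 climbs to 109 and 159.7 CPM in cells with 2 or more, and Stmn2 falls to 19.1 and 18.3 CPM.

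Beside the shared genes, positive cells at 37 °C differed in a further set of genes, most of them at low levels. The values that follow are depth-matched log2 fold changes, then mean levels in positive and in matched zero cells over 4 libraries. Aig1, a hydrolase of lipids that was at a low level, rose (1.73, 10.3 against 2.99 CPM). Fgfbp1, a carrier of fibroblast growth factors (1.004, 32.1 against 16.1 CPM), Ptgs1, the constitutive cyclooxygenase of prostaglandin synthesis (0.87, 46.5 against 24.3 CPM), Siah1b, a ubiquitin ligase (0.87, 20.4 against 11.3 CPM), Fam20c, the kinase of secreted proteins (0.77, 34.2 against 19.8 CPM), and Gsta4, a glutathione transferase (0.76, 41.4 against 23.5 CPM), rose too, beside Nr4a1, Tm4sf1 and Fgf7. The adjusted p of these 6 genes lay between 0.00289 for Ptgs1 and 0.0442 for Siah1b (edgeR), and each was higher in 4 of 4 libraries.

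The falls at 37 °C included genes of the matrix and of contraction. Cdhr1, a photoreceptor cadherin, fell the most (-1.41, 8.67 against 24.99 CPM), followed by the interferon-induced Ifitm3 (-1.04, 17.9 against 36.3 CPM) and, after Stmn2, by Tbcel (-0.92, 12.6 against 24.4 CPM) and the amino acid transporter Slc43a2 (-0.89, 13.7 against 25.5 CPM). Ogn, a small proteoglycan of the matrix, was at 29.7, 17.4, 33.02 and 40.9 CPM in positive cells and 58.5, 49.2, 51.8 and 58.5 CPM in zero cells. These groups did not overlap, with a log2 fold change of -0.88 ± 0.16 (SE) and adjusted p = 0.00117. Tagln, the smooth muscle gene transgelin (-0.84, 61.2 against 108 CPM), Fam180a (-0.83, 17.2 against 31.3 CPM), Glul, which makes glutamine (-0.73, 25.3 against 42.1 CPM), and Abhd5, an activator of lipid droplet lipase (-0.73, 25.8 against 42.2 CPM), were the others. The Ifitm3, Tagln and Fam180a groups overlapped, and Fam180a was lower in 3 of 4 libraries. At 39 °C the same genes, Stmn2 left aside, were not called in the depth-matched comparison. Their log2 fold changes there ran from -0.65 for Ogn to 0.40 for Tagln, the only value above 0. Against all zero cells Fam180a was called lower at both temperatures (-0.75 at 37 °C and -0.46 at 39 °C).

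At 39 °C the rises beside Nr4a1, Tm4sf1 and Fgf7 included secreted factors. Spp1, the secreted phosphoprotein osteopontin, was at 1049.9, 702, 425 and 1095 CPM in positive cells and 569, 490.2, 246 and 396 CPM in matched zero cells. The ranges overlapped because libraries differed in level, but positive cells were higher in 4 of 4, with a log2 fold change of 0.92 ± 0.096 (SE) and adjusted p = 3.20e-09. It was called in 21 of 21 alternatives at 39 °C, while at 37 °C its log2 fold change of 0.40 missed the threshold (adjusted p = 0.0542). Against all zero cells Spp1 was called higher at both temperatures (0.43 at 37 °C and 0.84 at 39 °C). Bmp2, a bone morphogenetic protein (0.85, 33.8 against 19.1 CPM), Id4, an inhibitor of basic helix-loop-helix factors (1.18, 36.7 against 16.2 CPM), and the neurotrophic factor Ndnf (1.02, 47.2 against 24.1 CPM) had separate groups. So did the imprinted gene Peg10 (0.99, 32.3 against 16.3 CPM) and the small heat shock protein Hspb1 (0.96, 45.5 against 24.02 CPM). Kcna4, a voltage-gated potassium channel subunit, rose too (1.66, 15.3 against 4.29 CPM), and its groups overlapped.

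The falls at 39 °C were led by Stmn2 and by Il33, an alarmin cytokine of the interleukin-1 family (-1.19, 14.2 against 32.04 CPM). Top1mt, the mitochondrial topoisomerase (-1.16, 8.004 against 18.9 CPM), and Ly6a, the surface antigen Sca-1 (-1.01, 73.4 against 154 CPM), came next. The rest were Serpinb1a, the stress kinase Nuak2 (-0.72, 26.6 against 43.9 CPM), the matrix proteoglycan Omd (-0.67, 35.3 against 59.5 CPM), the calcium-binding S100a4 (-0.55, 163 against 244 CPM), the phospholipase Pla2g16 (-0.54, 60.04 against 90.01 CPM) and Glipr2. Adjusted p ran from 1.06e-05 for Ly6a to 0.0496 for Pla2g16. Ly6a was at 74.7, 75.9, 73.3 and 69.8 CPM in positive cells and 69.2, 148, 216 and 182 CPM in zero cells, with a wide spread among the zero cells and the groups overlapping, and it was lower in 3 of 4 libraries. The value of S100a4 turned positive with at most 10% mitochondrial UMIs (0.31), and that of Omd with zero cells matched on phase (0.065).

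Whether the difference between positive and zero cells itself differed between temperatures was tested in the same fit. Of 9962 genes, 4 were called, 0.0402%, and 602 had an unadjusted p under 0.05. Gsta4 rose in positive cells at 37 °C and fell at 39 °C (0.76 and -1.10, a difference of -1.86, adjusted p = 0.0123). Peg10 (-0.13 and 0.99), Acadm, an enzyme of fatty acid oxidation (-0.39 and 0.34), and Fn1, fibronectin (-0.30 and 0.24), had the higher value at 39 °C. Their differences were 1.11, 0.73 and 0.54, each with adjusted p = 0.0390. These calls depended on the zero cells drawn. Another draw called 3 genes, none of them among the 4, and the Peg10 value turned to -0.058. Of the 4, Fn1 alone was also called against all zero cells (0.48, adjusted p = 4.89e-05), where 20 of 12629 genes passed, 0.158%. Of the 81 genes called depth-matched at 37 °C only, the difference passed for 2 in the depth-matched fit and for 1 against all zero cells. Of the 45 called at 39 °C only, it passed for 1 and for 9. Among the 9 were Hspb1 (0.88, adjusted p = 0.00591), Ly6a (-0.63, adjusted p = 0.00333), S100a4 (-0.35, adjusted p = 0.0114) and Bmp2 (1.40, adjusted p = 0.0281). Of these, Ly6a was also called with another depth-matched draw (-0.83, adjusted p = 0.0351), and Hspb1 with up to 10 zero cells per positive cell (0.90, adjusted p = 0.0271). For the other genes called at 1 temperature only, neither fit showed a difference between the temperatures.

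The receptors that share targets or partners with Nr4a2 were examined next. Of 3 tested members of the NR4A and retinoid X receptor list, Nr4a1 was higher at both temperatures and Rxra and Rxrb were not called. Rxra was at 20.6 CPM in positive and 18.1 CPM in matched zero cells at 37 °C and at 33.9 and 32.7 CPM at 39 °C. Rxrg had 0 UMIs. Nr4a3, the last of the family, was too rare for the depth-matched fit, with 13 UMIs in positive and 1 in matched zero cells at 37 °C, and 11 and 2 at 39 °C. Against all zero cells its log2 fold change was 2.40 at 37 °C (adjusted p = 0.0110) and 1.96 at 39 °C, where it missed the threshold (adjusted p = 0.0738).

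Few genes of the wider immediate-early response were called beside Nr4a1. Of 26 tested immediate-early genes, 1 was higher and 0 lower at 37 °C, and 0 were called at 39 °C. By an unadjusted p under 0.05 there were 6 and 11 of the 26, beside 1070 and 923 of all 9962 genes tested. DESeq2 called 0 at each temperature. At 39 °C 15 of the 26 had log2 fold changes above 0, the values of Egr2 and Egr3 being 1.52 and 0.92. The median log2 fold change of the list was 0.0069 and 0.041, beside medians over all genes of -0.00092 and -0.0039. The gene called was Klf2, a zinc finger factor (1.14, 14.5 against 6.67 CPM), which was not called against all zero cells. Fos, the leading gene of this class, was at 8.47, 4.81, 11.01 and 5.45 CPM in positive and 18.7, 6.68, 5.42 and 3.71 CPM in zero cells at 37 °C, and at 31.9, 21.3, 9.37 and 27.4 and 28.7, 27.5, 15.4 and 24.97 CPM at 39 °C, and the groups overlapped. At 39 °C Egr1 had a log2 fold change of 0.34 ± 0.089 (SE), which missed the threshold (adjusted p = 0.0507), and it was called against all zero cells (0.26, adjusted p = 5.57e-04). Fosb at 39 °C was at 20.1, 14.2, 10.2 and 11.2 CPM against 4.22, 7.17, 8.56 and 3.75 CPM, groups that did not overlap, with adjusted p = 0.135. Against all zero cells at 37 °C, Jun, Jund and Klf4 were lower (-0.29, -0.21 and -0.23) and Srf was higher (0.51).

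Of 11 tested targets of CREB, 0 were called at 37 °C and 1 was higher at 39 °C. At an unadjusted p under 0.05 there were 5 and 1, beside 1070 and 923 of all 9962 genes tested. DESeq2 called 0 and 1. The median log2 fold changes were 0.15 and 0.31. The called gene was Id1, an inhibitor of basic helix-loop-helix factors, at 634, 625, 616 and 661 CPM in positive and 544, 536, 449 and 528 CPM in matched zero cells at 39 °C. Its groups did not overlap, and the log2 fold change was 0.31 ± 0.063 (SE) with adjusted p = 0.00573. Pde10a, a cyclic nucleotide phosphodiesterase, had a depth-matched value of 1.03 ± 0.31 (SE) at 37 °C that missed the threshold (adjusted p = 0.0977) and was called against all zero cells (1.09, adjusted p = 2.44e-04). Sik1, a kinase that feeds back on CREB coactivators, was not called (-0.53 and 0.31), and neither was Crem (-0.31 and 0.51). None of 10 tested genes of feedback on the ERK kinase, none of 10 tested targets of NF-kB and none of 15 tested genes of the integrated stress response was called at either temperature in the depth-matched comparison, by edgeR's quasi-likelihood test or by DESeq2. At an unadjusted p under 0.05 there were 1, 1 and 4 at 37 °C and 2, 0 and 0 at 39 °C.

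Of the 21 listed dopaminergic genes, 4 had enough counts for the depth-matched test and none was called at either temperature, by edgeR or DESeq2, with 1 at an unadjusted p under 0.05 at each temperature. The 4 were Foxa2, a floor plate factor, En1, a midbrain homeobox gene, Msx1, also of the midbrain floor, and Sox6. Foxa2 was at 15.3, 21.6, 14.7 and 23.6 CPM in positive and 11.9, 14.6, 15.1 and 10.2 CPM in matched zero cells at 37 °C, and at 24.3, 16.6, 23.00 and 22.4 and 12.7, 8.37, 19.7 and 16.2 CPM at 39 °C. The groups overlapped, with log2 fold changes of 0.48 ± 0.23 (SE) and 0.60 ± 0.25 (SE) (adjusted p = 0.422 and 0.413). Against all zero cells Foxa2 was called at 39 °C (0.79, adjusted p = 0.00270) and not at 37 °C. Cells with a Foxa2 UMI made up 23.97% of positive and 17.4% of matched zero cells at 37 °C, and 18.5% and 14.9% at 39 °C. En1 (0.33 and 0.18) and Msx1 (0.57 and 0.55) had positive log2 fold changes that missed the threshold. The summed level of the 21 genes was 49.04 to 55.4 CPM in positive and 27.3 to 45.8 CPM in matched zero cells at 37 °C, and 49.3 to 59.1 CPM in positive and 40.2 to 45.5 CPM in matched zero cells at 39 °C. It was higher in positive cells in 4 of 4 libraries at each temperature and the groups did not overlap, and the sum was not tested. The 4 tested genes had positive log2 fold changes at both temperatures, with medians of 0.41 and 0.37, although 3 of 4 were positive at 37 °C with another draw and at 39 °C with RLE size factors. At 39 °C, 1 gene of the list was higher with zero cells matched on phase and 1 with up to 10 zero cells per positive cell. Of the direct targets of Nr4a2 named above, Slc18a2 had 1 UMI in positive cells at 37 °C and 2 at 39 °C, against 6 and 1 in matched zero cells.

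Other markers of cell type were described by the same lists. Among 5 tested pan-neuronal genes, Stmn2 was lower at both temperatures and no other was called. Their summed level was 281 to 319 CPM in members and 328 to 435 CPM in matched zero cells at 37 °C. Among 6 tested neural progenitor genes, the intermediate filament gene Nes was called lower at 37 °C (-0.31, 421 against 526 CPM). At 39 °C its log2 fold change was similar (-0.30) but was not called. The difference between the temperatures for Nes, 0.013, did not pass the test. Against all zero cells Nes was called lower at both temperatures (-0.17 and -0.31). Vim, another filament gene, was called lower at 39 °C (-0.19, 4779 against 5438 CPM). Neither of 2 tested glial genes and neither of 2 tested endothelial or immune genes was called by edgeR or DESeq2, with 1 of the 4, an endothelial or immune gene at 37 °C, at an unadjusted p under 0.05. The summed glial level was 42.2 to 56.9 CPM in members and 39.9 to 54.5 CPM in matched zero cells at 37 °C, and 47.3 to 61.7 CPM in members and 40.6 to 73.7 CPM in matched zero cells at 39 °C. Their part in the results was not tested.

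Some genes of mesenchymal and contractile cells were lower in positive cells. Of 9 tested mesenchymal genes, 8 had an unadjusted p under 0.05 at 37 °C, beside 1070 of all 9962 genes tested. There were 2 log2 fold changes above 0, and the median was -0.25. Called were 3 lower and 0 higher genes, beside 0.512% and 0.442% of all genes. They were the collagen genes Col1a1 (-0.23, 898 against 1055 CPM) and Col1a2 (-0.32, 585 against 732 CPM), and Fn1 (-0.30, 202 against 250.5 CPM). Of 11 tested contractile genes controlled by serum response factor, 8 had an unadjusted p under 0.05 at 37 °C, and the median was -0.19. Called were 3 lower and 0 higher genes. They were Tagln, the smooth muscle actin gene Acta2 (-0.71, 176 against 278 CPM) and the tropomyosin gene Tpm1, which was at 3181, 2801, 2851 and 3176 CPM in positive and 3641, 3492, 3415 and 3795 CPM in matched zero cells. The Tpm1 groups did not overlap (-0.26 ± 0.04 (SE), adjusted p = 9.48e-05), while the Acta2 groups did and 1 of 4 libraries went the other way. DESeq2 called 0 mesenchymal and 1 contractile gene at 37 °C. At 39 °C 0 contractile genes were called, by edgeR or DESeq2, and 3 had an unadjusted p under 0.05, and the only mesenchymal gene called was Twist1, a transcription factor of mesenchymal cells, which was higher (0.53, 127 against 87.99 CPM). Without the library as a block, 1 contractile and 0 mesenchymal genes were called at 37 °C. Against all zero cells, 4 of 12 tested contractile genes were lower and 0 higher at each temperature, Acta2 (-0.43 and -0.85), Myh9 (-0.14 and -0.19) and Tpm1 (-0.16 and -0.11) at both, and with zero cells matched on phase 2 of 11 were lower at 39 °C. Against all zero cells 1 of 11 mesenchymal genes, Twist1, was higher and 5 lower at 37 °C, and 2 were higher and 1 lower at 39 °C.

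Few genes of the stress lists were called. Of 20 tested targets of p53, 0 were higher and 2 lower at 37 °C, namely Cdkn1a, the cell cycle inhibitor p21 (-0.20, 1073 against 1238 CPM), and Ccng1 (-0.22, 494 against 579 CPM), both with overlapping groups, and 0 were called at 39 °C (3 at an unadjusted p under 0.05). At 37 °C 8 of the 20 had an unadjusted p under 0.05, beside 1070 of all 9962 genes tested. DESeq2 called 0 at both temperatures. Against all zero cells, 7 were lower at 37 °C and 4 at 39 °C, and 0 were higher. The summed level of the list was lower in positive than in matched zero cells in 4 of 4 libraries at each temperature, at 4635 to 5373 CPM in members and 4970.2 to 6066 CPM in matched zero cells at 37 °C. Of 12 tested heat shock genes, none was called at 37 °C in the depth-matched comparison (3 at an unadjusted p under 0.05, 0 by DESeq2). Hspb1 alone was higher at 39 °C, where it was at 41.96, 59.3, 43.5 and 37.4 CPM in positive and 21.95, 27.5, 15.4 and 31.2 CPM in matched zero cells. Against all zero cells, 2 heat shock genes were higher at 37 °C and Hspb1 at 39 °C. There DESeq2 called 2 and 1. None of 3 tested nuclear long noncoding RNAs, a sign of damaged cells or bare nuclei, was called in the depth-matched comparison by edgeR or DESeq2, with 1 at an unadjusted p under 0.05 at each temperature. Against all zero cells, edgeR called 2 of 4 lower at 37 °C and 0 at 39 °C. DESeq2 called 2 and 1.

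**Figure D4:**
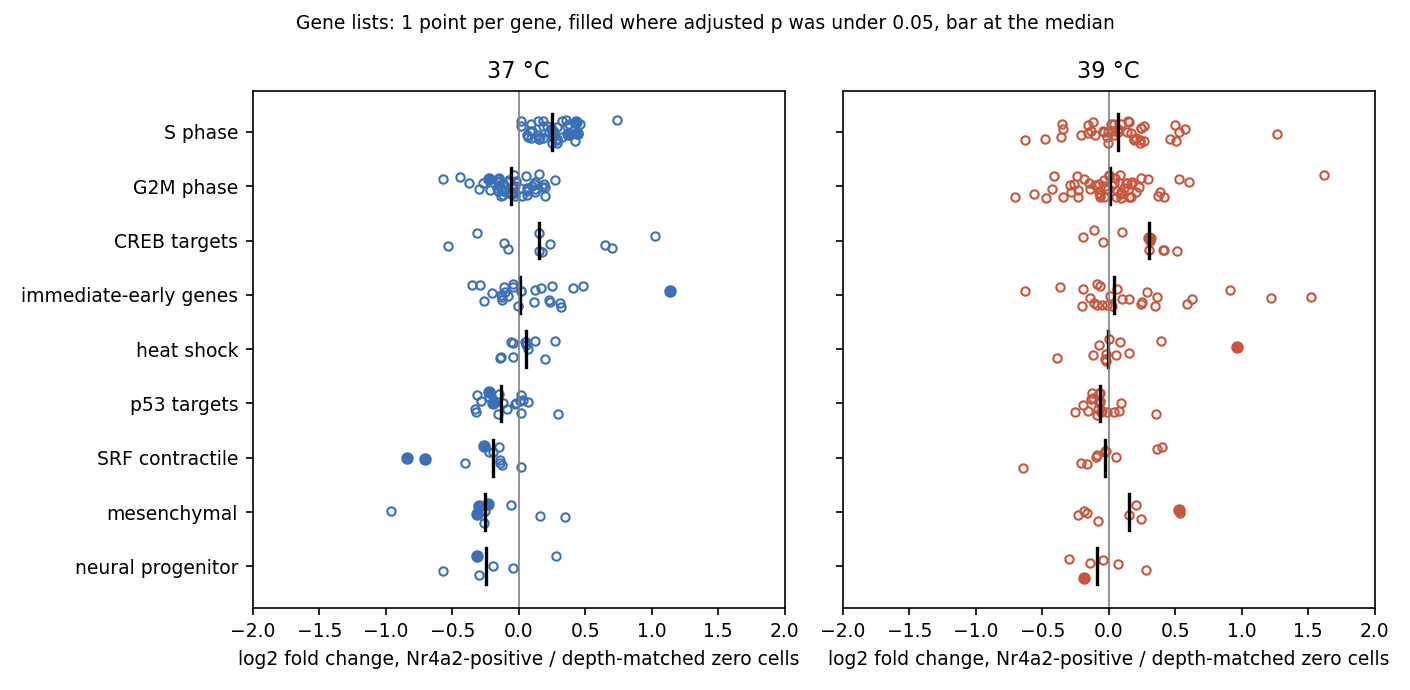
Depth-matched log2 fold change of Nr4a2-positive over zero cells for the genes of 9 lists at 37 °C (left) and 39 °C (right), 1 point per gene, filled where the adjusted p was under 0.05, with the median as a black bar. All 42 S phase points at 37 °C lie above 0, and the filled contractile, mesenchymal and p53 points at 37 °C lie below it.

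Positive cells at 37 °C were assigned to S phase more often. The S phase share was 44.3, 58.1, 52.2 and 55.4% of positive cells in replicates 1 to 4, and 32.95, 50.5, 36.7 and 41.3% of matched zero cells. It was higher in 4 of 4 libraries, by 12.1 ± 3.54 percentage points (SD, n = 4). The exact sign-flip permutation test gave p = 0.125, the smallest that 4 libraries allow. At 39 °C the shares were 9.52, 21.4, 9.09 and 17.02% and 9.52, 11.9, 12.5 and 11.7%, higher in 2 of 4 libraries. Over all 8 libraries the difference was 7.50 percentage points in S, -8.19 in G1 and 0.685 in G2M. None passed the threshold after adjustment over 5 measures, with adjusted p = 0.0651, 0.0781 and 0.633 (two-sided exact sign-flip permutation tests). Read the other way, after thinning to 5000 UMIs the positive share was 1.28 ± 0.364% of G1, 2.55 ± 0.815% of S and 1.77 ± 0.690% of G2M cells at 37 °C, and 2.21 ± 0.281%, 3.67 ± 1.04% and 2.02 ± 1.49% at 39 °C (SD, n = 4).

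The 42 tested S phase genes are the ones from which the phases were assigned, so their values are not separate support for the shares above. All 42 had positive log2 fold changes at 37 °C, with a median of 0.25, and 3 passed the test, all higher: Mcm4, a subunit of the replicative helicase (0.37, 139 against 106 CPM), Tyms, thymidylate synthase (0.43, 189 against 140.1 CPM), and Slbp, the histone mRNA binding protein (0.44, 145 against 106 CPM). At an unadjusted p under 0.05 there were 20 of the 42 at 37 °C, beside 1070 of all 9962 genes tested. At 39 °C, 26 of 42 were positive with a median of 0.071, and none passed the edgeR test (4 at an unadjusted p under 0.05). DESeq2 called 0 of the 42 at each temperature in the depth-matched comparison. Against all zero cells 17 were higher at 37 °C and 0 at 39 °C. Among 52 tested G2M genes, the tubulin gene Tubb4b was lower at 37 °C in the depth-matched comparison (-0.22, 767 against 899 CPM). No other was called there, and 18 of the 52 values were above 0 at 37 °C. With another draw 36 were above 0, and 3 genes were higher and 0 lower. Against all zero cells at 37 °C, 6 G2M genes were higher and 1 lower, with 34 of 52 values above 0. With zero cells matched on phase as well as depth, 37 of 42 S phase genes were positive at 37 °C and 1 was called. In that comparison 10 of the 13 shared genes were called at 37 °C and 11 at 39 °C, and all 13 kept their direction at both.

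Measures of RNA quality differed little between positive and matched zero cells. The share of UMIs from the mitochondrial genome in the median cell was 7.76, 7.48, 8.002 and 7.69% in positive and 7.55, 7.25, 7.83 and 7.29% in matched zero cells at 37 °C. At 39 °C it was 8.64, 8.35, 8.71 and 9.35% and 8.68, 8.26, 7.97 and 8.71%. It was higher in positive cells in 7 of 8 libraries, by 0.306 percentage points, and the adjusted p was 0.0651 (exact sign-flip permutation test). The share from 84 ribosomal protein genes differed by -0.462 percentage points from that of matched zero cells and did not pass either (adjusted p = 0.0651). Their part in the gene differences was not tested.

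**Figure D5:**
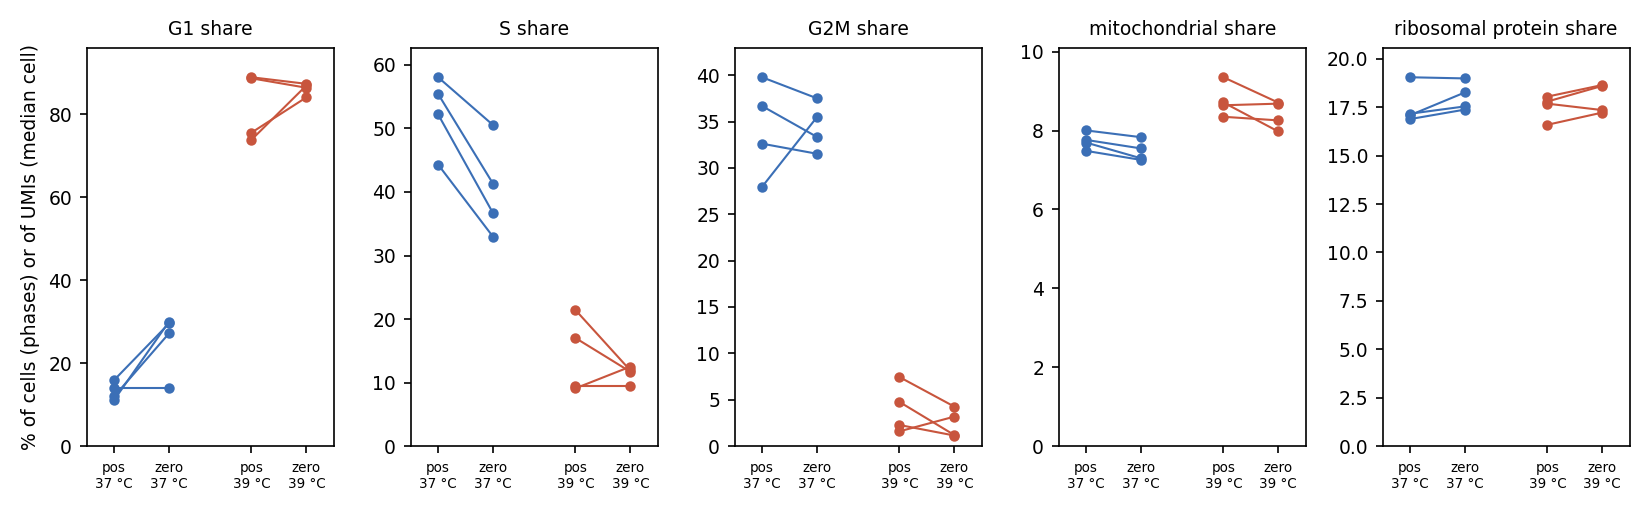
Share of cells in G1, S and G2M phase, and share of UMIs in the median cell from mitochondrial and ribosomal protein genes (all in %), in Nr4a2-positive cells (pos) and depth-matched zero cells (zero), 1 line per library (blue 37 °C, red 39 °C). All 4 lines of the 37 °C S phase panel slope down from positive to zero cells, and the 39 °C lines of that panel do not share a direction.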

How the data were processed

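Single cells of 8 libraries, 4 per temperature, were prepared with 10x Chromium chemistry for 3' ends, version 3. Alignment by the authors was to mouse mm10 with Cell Ranger 3.0.1 (versions from the submitters' processing notes), and they deposited raw UMI counts per gene and cell, with no normalization, filtered to called cells. Everything else was computed here. The limits on mitochondrial share and detected genes follow the study's methods, and the minimum of 5000 UMIs was added for this description. Cells per library and depth are given with the results.

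UMI counts were summed per library over Nr4a2-positive and over zero cells, and the 16 sums were fitted together in edgeR 4.0.16 (R 4.3.3; quasi-likelihood, TMM, library as a block because both sums come from the same library). Genes needed a mean of 5 UMIs per sum. Depth-matched zero cells were drawn 1 per positive cell, within a library and a bin of 0.1 in log2 total UMIs. CPM are UMIs per 1000000 UMIs of the summed cells. For single tested genes in positive and matched zero cells, the total was that of the genes tested, scaled by TMM. For Nr4a2 and for the classes by Nr4a2 UMIs the total was unscaled. The fits were tested on simulated data in which 200 well-counted genes changed by 1 log2 unit. At 37 °C and 39 °C, 182 and 172 of them were recovered against all zero cells, and 200 and 197 depth-matched. False calls were 12 and 12, and 7 and 5. The spread was set in advance, with no rare changed genes and no redrawing of zero cells, so the simulation cannot speak to these. Phases were assigned with Seurat 5.3.0. Levels and calls refer to summed cells, in which fewer expressing cells and less RNA per cell cannot be told apart.

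The members and gene lists were chosen with earlier results of these data known. The genes named were, for each temperature, the 10 largest rises and the 10 largest falls by depth-matched log2 fold change among genes called in the same direction in both comparisons, at 10 CPM or more in the higher group. To these were added the tested members of the NR4A, immediate-early, CREB and dopaminergic lists, up to 4 called members of any other list and the 5 largest called differences between temperatures. A gene that this rule names is not reported here. Anxa5, Areg, Baiap2, Col18a1, Inhba, Thbs1 and Tspan8 were added after their values were seen, because they were called at both temperatures. Gene positions are from GENCODE M21 and promoters from RefSeq (GRCm38.p6), where 11 of 14 genes looked up had an entry.

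Scrublet in scanpy 1.11.5 scored 0 cells above 0.5 and so did not work as a caller of doublets. Doublets were therefore kept, and an alternative left out the 271 cells with the highest scores, 15 of them positive. Further alternatives were RLE scaling, other filters on low counts, DESeq2 1.42.0, no library block, each temperature fitted by itself, another draw of zero cells, matching on phase too, cells thinned to 5000 UMIs, at most 10% mitochondrial UMIs, 2 or more Nr4a2 UMIs and leaving out each library. A comparison with up to 10 zero cells per positive cell was chosen after seeing the data.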

Additional observations from a re-analysis of the deposited data

Results flagged for a closer look

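Among 60 groups of 4 libraries examined, 2 held a library far from the other 3 by Dixon's criterion, which chance alone meets in about 1 in 20 groups. The share of Nr4a2-positive cells in 39 °C replicate 1 was 6.64%, beside 3.52% to 3.80% in the other 39 °C libraries. This library was the deepest of the 4, and after thinning to 5000 UMIs its share was 2.53%, within the 2.07% to 2.54% of its temperature. In the same library the log2 ratio of Kcna4 between positive and matched zero cells was 0.31, beside 2.60 to 2.72 in the other 3.

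The change in positive cells differed between the temperatures for 4 genes by the test of the difference, 39 °C minus 37 °C: Fn1 (0.54), Acadm (0.73), Peg10 (1.11) and Gsta4 (-1.86). With another draw of zero cells the values were 0.48, 0.35, -0.058 and -1.51, with adjusted p of 0.203, 0.706, 0.986 and 0.203 (edgeR). With up to 10 zero cells per positive cell, chosen after seeing the data, Fn1 (0.49, adjusted p = 0.00155) and Gsta4 (-1.28, adjusted p = 0.00528) were called by edgeR, and Acadm and Peg10 were not.

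Outside the cells described, 99 further cells in the deposited tables held an Nr4a2 UMI and were left out by the limits on cells, 39 of them only because they had under 5000 UMIs.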

How the results depend on the processing

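Counts of called genes moved with the processing more than directions did. The counts are given in a fixed order: all zero cells at 37 °C and at 39 °C, depth-matched at 37 °C and at 39 °C, and the difference between temperatures, which were 423, 362, 95, 59 and 4 as reported. They were 57, 64, 2, 8 and 0 with members of 2 or more Nr4a2 UMIs, 191, 135, 9, 8 and 0 with DESeq2, which gave many genes no adjusted p, 99, 129, 34, 34 and 0 with thinned cells, 431, 199, 54, 98 and 0 with at most 10% mitochondrial UMIs and 697, 315, 138, 88 and 13 with no filter on low counts. DESeq2 also had fewer depth-matched genes at an unadjusted p under 0.05, 246 and 238 against 1070 and 923 by edgeR. Without the replicate block, that is without the library term, the counts of called genes were 63, 100, 16, 22 and 0. Depth-matched, another draw of zero cells gave 167, 51 and 3 calls, of which 65, 28 and 0 were among those reported. Matching on phase gave 61, 114 and 9, up to 10 zero cells per positive cell (chosen after seeing the data) 365, 142 and 8, and leaving out high doublet scores 236, 62 and 5. Leaving out 1 library at a time gave 208 to 519, 158 to 480, 19 to 132, 28 to 92 and 0 to 6. The lowest depth-matched counts came without 37 °C replicate 3 at 37 °C and without 39 °C replicate 3 at 39 °C and for the difference. RLE scaling, filterByExpr and fits of each temperature by itself left these counts within 1.5 times. Of 818 values of named genes under the alternatives, 595 kept direction and call, 219 lost the call and 4 changed sign: S100a4 at 39 °C with 2 or more Nr4a2 UMIs (0.029) and with at most 10% mitochondrial UMIs (0.31), Gsta4 at 37 °C with 2 or more (-0.081) and Omd at 39 °C matched on phase (0.065). The settings gave unequal numbers of these values, so the totals lean on those that gave most. RLE scaling gave 42 values and DESeq2 only 3, all of which kept direction and call. With 2 or more Nr4a2 UMIs, 4 values kept direction and call, 16 lost the call and 2 changed sign. The difference in the positive share was -0.306 percentage points on all UMIs and 0.250 to 0.483 without 1 library. Pairing the libraries by replicate number as a replicate block left it at 0.384 (exact permutation p = 0.125). Same-numbered libraries correlated at -0.0937, -0.0883, -0.0573 and 0.188 in their deviations from the temperature means, 1 of 4 being the best match of its 37 °C library, so they share only a number. The G2M difference changed sign with another draw (-0.205) and with 2 or more Nr4a2 UMIs (-8.78), and the ribosomal difference against all zero cells (0.00867) and with 2 or more (0.163). Without 1 library the differences ran -9.68 to -6.66 in G1, 6.35 to 9.06 in S, 0.272 to 1.86 in G2M, 0.244 to 0.355 in the mitochondrial and -0.575 to -0.359 in the ribosomal share. The cause of these changes was not tested, beyond the fewer cells or UMIs that some settings leave. Genes under a mean of 5 UMIs per sum could not be judged at this depth.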

Other observations

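Against all zero cells, 98 genes were called at both temperatures, 95 of them in the same direction. Those described here were chosen after their values were seen, and the values are log2 fold changes at 37 °C and 39 °C from the edgeR fit on all zero cells. Kcna4 (0.93 and 1.06) and Ptgs1 (0.75 and 0.80), which passed the depth-matched test at 1 temperature each, were higher at both. The adhesion receptor gene Adgrl3 (0.86 and 1.23, adjusted p = 0.0378 and 3.36e-05), the transcription factor Cebpd (0.64 and 0.71, adjusted p = 0.00413 and 5.82e-04) and Nrn1, which encodes the activity-regulated protein neuritin (0.47 and 0.90, adjusted p = 0.0375 and 1.85e-09), were higher too. Lower at both were Socs3, a feedback inhibitor of cytokine signalling (-0.52 and -0.61, adjusted p = 0.0153 and 0.0106), Prg4, which encodes lubricin (-0.66 and -0.65, adjusted p = 7.16e-04 and 0.0168), and the hypoxia- and stress-responsive Ndrg1 (-0.63 and -0.41, adjusted p = 2.74e-08 and 3.36e-05).

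The 3 genes with opposite directions were Mgp, an inhibitor of calcification in the matrix (-0.69 and 0.47), Klf9, a glucocorticoid-responsive factor (-0.32 and 0.29), and Fn1 (-0.20 and 0.29), each lower in positive cells at 37 °C and higher at 39 °C. In the same fit the test of the difference gave adjusted p = 6.03e-09 for Mgp, 0.0102 for Klf9 and 4.89e-05 for Fn1. Mgp was also called for the difference with another draw of depth-matched zero cells, and not with the draw reported.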
